A study of Aspergillus oryzae with 20 samples.

Results

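Replicate 5 was set against replicate 1 in Aspergillus oryzae, the filamentous fungus used to make koji. The comparison takes the 4 libraries titled replicate 5, 1 per strain, and the 4 titled replicate 1, 8 of the 20 libraries of the series, chosen by their titles alone. The series sequenced messenger RNA of 4 strains grown on wheat bran, with 5 libraries per strain. All strains descend from strain RIB40 and carry a pyrG deletion with pyrG+ and ligD+ markers. The double deletion strain (∆admA∆admB) lacks admA and admB, the ∆admA strain lacks admA, the ∆admB strain lacks admB, and the control strain (Deletion-control) keeps both genes. Both replicate groups hold all 4 genotypes under the same labels: solid wheat bran culture, 30 °C and 72 h. The labels do not say what a replicate number stands for, whether same-numbered libraries of different strains share a flask, a day or a batch, or whether the 5 libraries of a strain are separate cultures. The p-values below thus rest on library-to-library spread, and that spread can be technical.

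On a solid surface A. oryzae grows as hyphae through the substrate and then raises aerial conidiophores that bear chains of spores (conidia). In Aspergillus species, upstream activators switch on brlA, the central transcription factor of conidiophore development, and wetA acts late in spore maturation. The hyphal wall is built of chitin, beta-glucan and alpha-1,3-glucan, and on bran the hyphae secrete amylases, proteases and plant cell wall enzymes and take up the sugars, peptides and amino acids released.

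Each library lists 12074 genes in RPKM, reads scaled for gene length and for the reads of the library. The depth in reads is unknown. RPKM values of low genes step in whole reads, and these steps gave a relative depth, against control replicate 1, of 0.566 ± 0.135 in replicate 5 and 0.708 ± 0.208 in replicate 1 (SD, n = 4 each), uncertain by a factor of 2. Depth was higher in replicate 5 in 1 of 4 strains (exact paired permutation test, two-sided, p = 0.375). An error of a factor of 2 could change the sign of a pair, so this test cannot decide whether depth differed. Genes listed at 0 numbered 1094 ± 132 in replicate 5 and 774.5 ± 88.9 in replicate 1, more in replicate 5 in all 4 strains (the exact p was the smallest that 4 pairs allow, which is above 0.05). The 20 most abundant genes of a library held 30.0% ± 3.66 of the RPKM sum in replicate 5 and 22.3% ± 0.49 in replicate 1, again more in all 4 strains and with the same smallest p. The part of depth and of this concentration in the differences below was not tested. As a check of the labels, admA was listed at 0 in both replicates of ∆admA∆admB and ∆admA. It had 1.05 RPKM in ∆admB and 14.2 in the control in replicate 5, against 0.261 and 0.248 RPKM in ∆admB and control replicate 1. With the strains that keep admA so near 0 in replicate 1, the values listed at 0 there check little. Levels of admB were not checked.

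Among the genes that fell in replicate 5 were regulators of conidiophore development (brlA, flbD, fluG), vacuole and autophagy genes (ams1, vac8) and the genes for aconitase and glucokinase (acoA, glkA). Among those that rose were genes of sulfate assimilation (sC, met16) and sterol synthesis (erg1, erg6), and of the alpha-1,3-glucan synthase genes ags1 rose and ags2 fell. Of 10299 genes that reached 1 RPKM in 4 or more of the 8 libraries, 422 (4.1%) rose and 923 (8.96%) fell in replicate 5 in a limma fit on log2(RPKM + 1), with strain as a block and Benjamini-Hochberg adjusted p under 0.05. Together that is 13.1% of the genes tested. All 1345 had the same sign in all 4 strains. Across all genes tested, 20.5% were higher and 26.8% lower in replicate 5 in all 4 strains. The 4 replicate 5 values lay above all 4 replicate 1 values for 12% of genes and below them for 17%. Both shares are over all genes tested. A call already favours groups without overlap, so for called genes a lack of overlap is no separate support. The median difference (replicate 5 minus replicate 1, log2) was -0.07 over all genes, 1.59 over genes that rose and -1.98 over genes that fell. Among the called genes, 150 rose and 451 fell by at least 2 on the log2 scale.

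**Figure D1:**
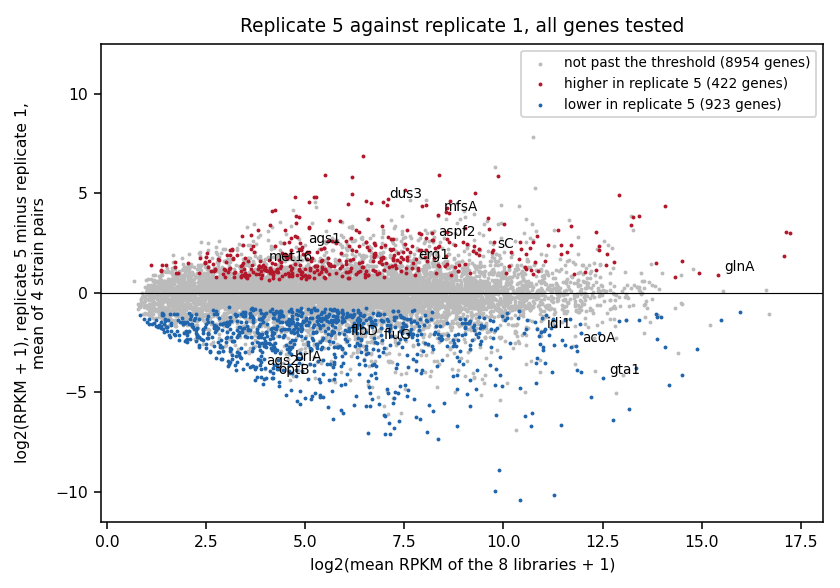
Each point is a gene, with the log2 of its mean RPKM over the 8 libraries, plus 1, on the x axis and its log2(RPKM + 1) difference, replicate 5 minus replicate 1, averaged over the 4 strains, on the y axis. Coloured points are the 422 genes that rose and the 923 that fell. The falls reach to -10.40 on the log2 scale.

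The calls rest on 4 pairs. Without the ∆admA∆admB, ∆admA or control pair, limma called 0 genes, with 2918, 2757 and 2479 genes at an unadjusted p under 0.05. Without the ∆admB pair it called 223 higher and 567 lower. Rescaling the libraries moved the median difference of all genes, -0.07 as deposited, by more than 0.1 on the log2 scale: it was 0.06 after median scaling and 0.10 after quantile normalization. The share of higher genes among the calls was 31.4% as deposited, 41.6% after median scaling (585 higher, 822 lower) and 48.4% after quantile normalization (793 higher, 845 lower). Without strain as a block, 839 genes were higher and 1391 lower. Of the 56 called genes named here by rule, 37 kept their call in all 11 alternatives that keep all 4 pairs, wherever tested. The call was lost in 4 to 6 of them for pex6, prnC, sidC, sod1, tom70 and ysh1, in 2 or 3 for coq4, dhh1, erg2, glnA, pan2n2, rex4, ags1, chs3 and pex14, and in 1 for fleA, fmpF, glpV and grpE.

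The strains did not contribute evenly. The interquartile range of the log2 differences was 1.48 in ∆admA∆admB, 1.57 in ∆admA, 1.04 in ∆admB and 1.57 in the control. The genes that fell had a median of -1.96 in ∆admA∆admB, -2.09 in ∆admA, -1.38 in ∆admB and -2.22 in the control. The genes that rose had medians of 1.57, 1.78, 1.16 and 1.68 in the same strains. The ∆admB pair was thus the closest of the 4 on each measure. Whether the strains differ in this was not tested, since each strain has 1 pair.

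Regulators of conidiophore development were among the genes that fell. Of 12 tested genes of conidiation and spore pigment, 4 fell (33.3%, against 8.96% of all genes tested) and 0 rose (4.1% of all genes), and the median difference was -0.73, against -0.07 over all genes. The gene brlA (AO090005001041) had 2.33 RPKM in ∆admA∆admB, 2.86 in ∆admA, 0.931 in ∆admB and 1.60 in the control in replicate 5, against 10.4 RPKM in ∆admA∆admB, 90.2 in ∆admA, 29.7 in ∆admB and 46.7 in the control in replicate 1. All 4 replicate 5 libraries lay below 3 RPKM and the groups did not overlap (log2 difference -3.63 ± 0.52, SE; adjusted p = 0.031). In the 12 libraries of replicates 2 to 4, brlA had a median of 2.58 RPKM and a highest value of 34.6.

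The genes flbD and fluG, activators upstream of brlA in Aspergillus nidulans, fell as well. The Myb-type factor flbD had 14.9, 17.0, 27.0 and 21.5 RPKM in replicate 5 of ∆admA∆admB, ∆admA, ∆admB and the control, against 127.8, 72.1, 82.6 and 142.1 RPKM in replicate 1 (log2 difference -2.32 ± 0.30, adjusted p = 0.029). The fluG gene had 9.66, 43.4, 76.0 and 28.1 RPKM in replicate 5, against 146.6, 256.5, 168.5 and 169.0 RPKM in replicate 1 (-2.50 ± 0.46, adjusted p = 0.040). Neither gene overlapped between the groups, and for fluG ∆admB was the highest of replicate 5. The velvet regulator veA, which sets the balance of asexual and sexual development in A. nidulans, was named after its values were seen. It averaged 29.3 ± 4.79 RPKM in replicate 5 and 57.7 ± 11.1 RPKM in replicate 1 (SD, n = 4 each) and fell by 0.95 on the log2 scale (adjusted p = 0.033). Of the 12 tested genes of the group, 7 were lower and 1 was higher in replicate 5 in all 4 strains. The lower genes were brlA, flbB, flbD, fluG, veA, vosA and nsdD. Of these, vosA and nsdD, named after their values were seen, differed by -0.66 and -0.80 and did not pass (limma adjusted p = 0.118 and 0.075). The group was not split into activators and repressors, so these counts do not give a direction of conidiation. The higher gene was flbA, named after its values were seen. It had 89.6, 180.9, 42.7 and 201.0 RPKM in replicate 5, against 41.9, 37.1, 31.7 and 85.1 RPKM in replicate 1. The flbA difference did not pass (1.25 ± 0.34, adjusted p = 0.075).

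The late gene wetA did not pass. It had 15.2, 11.0, 16.4 and 11.9 RPKM in replicate 5, against 11.0, 13.2, 13.9 and 12.6 RPKM in replicate 1. The groups overlapped, with 2 strains higher and 2 lower (log2 difference 0.08 ± 0.18, adjusted p = 0.774). The spore pigment gene ayg1, named after its values were seen, had 667.7, 1018.4, 1.60 and 738.1 RPKM in replicate 5, against 1.76, 1744.8, 1.39 and 1.95 RPKM in replicate 1. Its high values occurred in 3 of the 4 replicate 5 libraries and in ∆admA replicate 1, and the gene did not pass (adjusted p = 0.226). The identifier of abaA, which acts between brlA and wetA, is not paired with a symbol in the table used here.

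Of 27 marker genes of conidiophores and conidia, 11 had a row by symbol. Their summed level ran from 1526 to 2656 RPKM in replicate 5 and from 2194 to 3759 RPKM in replicate 1, so the ranges overlapped. Without ayg1 the sums ran from 858 to 2005 RPKM in replicate 5 and from 2014 to 2829 RPKM in replicate 1. The largest member of the sums without ayg1 in each library was flbB, named after its values were seen. In ∆admA∆admB replicate 5 and in both ∆admA libraries ayg1 was above flbB. It had 512.4, 607.8, 1504 and 1337 RPKM in replicate 5, against 1759, 1356, 1600 and 2007 RPKM in replicate 1. The groups overlapped for flbB and it did not pass (limma adjusted p = 0.135), so the sums without ayg1 rest in large part on 1 uncalled gene. The marker arp2 was listed at 0 in all 4 libraries of replicate 5 and in 3 of replicate 1. The part of conidiophores and spores in the other differences was not tested, and in bulk samples fewer cells of a type and less RNA per cell cannot be told apart.

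**Figure D2:**
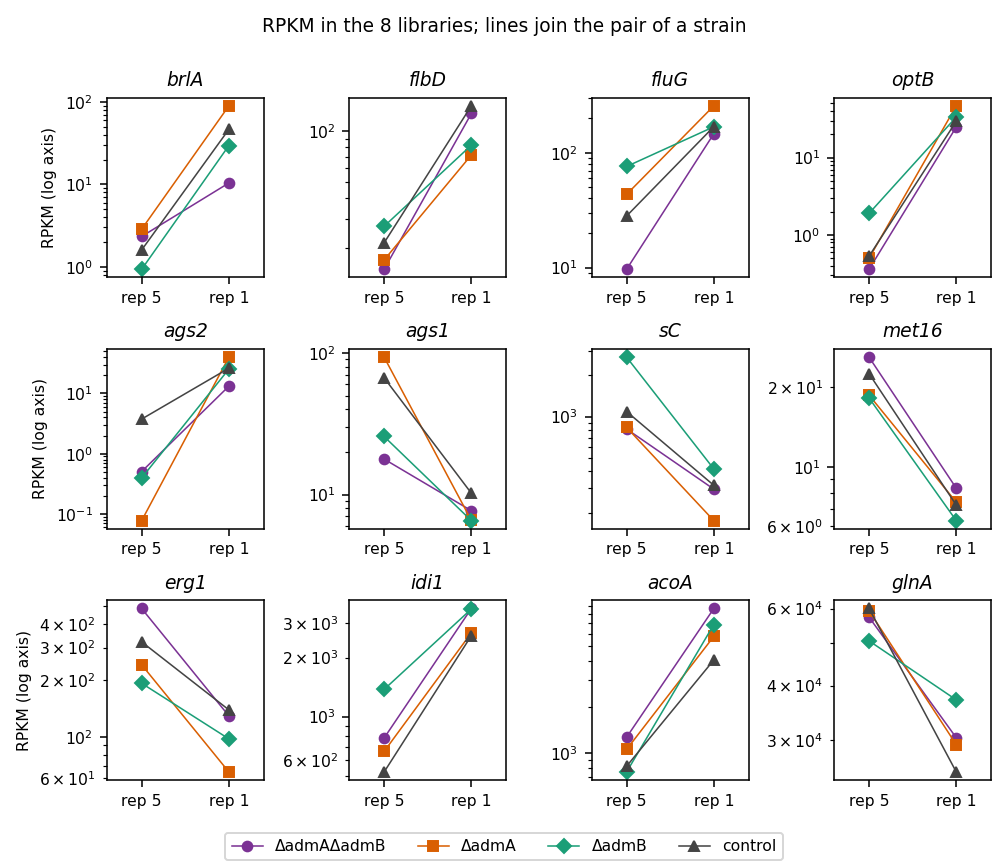
RPKM on a log axis in the 8 libraries for 12 genes named in the text, replicate 5 left of replicate 1, with 1 symbol and line per strain. For brlA all 4 replicate 5 points lie below 3 RPKM and all 4 replicate 1 points lie above 10.

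Among the cell wall genes, glucan synthesis and breakdown went in both directions. Of 17 tested glucan genes, 1 rose (5.88%) and 2 fell (11.8%), near the shares over all genes. Their median difference was 0.59, and 0.24 without the ∆admA pair. The alpha-1,3-glucan synthase gene ags1 (AO090003001500) had 17.8, 93.3, 25.7 and 66.7 RPKM in replicate 5 of ∆admA∆admB, ∆admA, ∆admB and the control, against 7.69, 6.57, 6.54 and 10.2 RPKM in replicate 1 (log2 difference 2.29 ± 0.45, adjusted p = 0.044). Its relative ags2 (AO090026000523) went the other way, with 0.506, 0.0775, 0.396 and 3.76 RPKM in replicate 5, against 13.2, 40.1, 25.5 and 26.3 RPKM in replicate 1 (-3.81 ± 0.50, adjusted p = 0.029). For both genes the groups did not overlap. The third gene of the family, ags3, named after its values were seen, averaged 31.1 ± 16.8 RPKM in replicate 5 and 32.3 ± 10.4 RPKM in replicate 1, with 2 strains higher and 2 lower (adjusted p = 0.677).

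The exo-beta-glucanase gene exgO had 6.82, 29.6, 21.8 and 18.7 RPKM in replicate 5, against 68.5, 142.3, 96.5 and 162.0 RPKM in replicate 1. Every replicate 5 value lay below every replicate 1 value (-2.63 ± 0.26, adjusted p = 0.025). Of 13 tested chitin genes, 1 fell (7.69%, against 8.96% of all genes tested) and 0 rose (4.1% of all genes). That gene, the chitin synthase gene chs3, had 70.4, 70.4, 58.7 and 70.2 RPKM in replicate 5, against 126.2, 116.4, 103.8 and 118.2 RPKM in replicate 1 (-0.78 ± 0.16, adjusted p = 0.046).

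Of 7 tested genes of autophagy, 3 fell in replicate 5 (42.9%, against 8.96% of all genes tested) and 0 rose. In all 4 strains 5 were lower, where 26.8% of all genes were, and none had a positive mean difference, with a median of -0.72. The vacuolar alpha-mannosidase gene ams1 had 139.9, 111.1, 219.1 and 123.6 RPKM in replicate 5 of ∆admA∆admB, ∆admA, ∆admB and the control, against 386.0, 354.6, 420.2 and 334.4 RPKM in replicate 1 (-1.37 ± 0.21, adjusted p = 0.033). The vacuole membrane gene vac8 averaged 321.6 ± 133.1 RPKM in replicate 5 and 821.8 ± 216.3 RPKM in replicate 1 (-1.42 ± 0.22, adjusted p = 0.033). For atgI the means were 36.2 ± 7.88 RPKM and 84.3 ± 5.61 RPKM in replicate 5 and replicate 1 (-1.22 ± 0.21, adjusted p = 0.035). None of the 3 overlapped between the groups.

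Of 12 tested genes of central carbon metabolism, 2 fell (16.7%, against 8.96% of all genes tested) and 0 rose, with a median of -0.58. The glucokinase gene glkA had 101.0, 77.4, 229.3 and 119.3 RPKM in replicate 5, against 348.3, 368.7, 390.5 and 408.6 RPKM in replicate 1 (-1.64 ± 0.30, adjusted p = 0.040). The other gene, pgmA, averaged 360.2 ± 208.6 RPKM in replicate 5 and 1016.4 ± 130.8 RPKM in replicate 1 (-1.63 ± 0.27, adjusted p = 0.035). In both, ∆admB was the highest of the 4 replicate 5 libraries, yet below all of replicate 1. The transketolase gene tktA and the phosphoglycerate kinase gene pgkA, named after their values were seen, were lower in all 4 strains, by means of -1.65 and -1.08, and did not pass (adjusted p = 0.065 and 0.082).

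Of 11 genes of respiration and the citric acid cycle, 1 rose and 1 fell (9.09% each, against 4.1% and 8.96% of all genes tested). A positive difference was found in 9, and 8 were higher in all 4 strains, where 20.5% of all genes were, with a median of 0.57. The ubiquinone synthesis gene coq4 rose, with 85.6 ± 25.1 RPKM in replicate 5 and 42.1 ± 12.4 RPKM in replicate 1 (1.02 ± 0.19, adjusted p = 0.040). Its median in replicates 2 to 4 was 97.8 RPKM (33.5 to 192.3), above the replicate 5 mean. The aconitase gene acoA (AO090003000415) fell. It had 1269, 1057, 754.5 and 822.1 RPKM in replicate 5, against 8729, 5749, 6865 and 4039 RPKM in replicate 1 (-2.68 ± 0.23, adjusted p = 0.021). In replicates 2 to 4 it ran from 516.3 to 831.7 RPKM, so replicate 1 stood above the 16 other libraries. Over all genes tested, 66 had their 4 replicate 1 values above, and 66 below, all 16 other libraries, while 32 and 25 had their replicate 5 values above and below all others.

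Both named genes of sulfate assimilation rose. The ATP sulfurylase gene sC (AO090020000349) had 811.7, 833.6, 2703 and 1088 RPKM in replicate 5 of ∆admA∆admB, ∆admA, ∆admB and the control, against 296.2, 174.8, 415.4 and 315.9 RPKM in replicate 1 (2.04 ± 0.28, adjusted p = 0.029). The PAPS reductase gene met16 (AO090020000347) had 25.8, 18.6, 18.2 and 22.4 RPKM in replicate 5, against 8.34, 7.39, 6.30 and 7.21 RPKM in replicate 1 (1.41 ± 0.15, adjusted p = 0.025). The groups did not overlap for either gene. In the RefSeq gene order 1 gene lies between them. They were the 2 of 19 tested amino acid synthesis genes that rose (10.5%, against 4.1% of all genes tested), and 0 fell (8.96% of all genes). The group's median was 0.14.

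In nitrogen metabolism, 1 of 7 tested genes rose and 1 fell (14.3% each, against 4.1% and 8.96% of all genes tested). The glutamine synthetase gene glnA, among the abundant transcripts, had 57335, 59269, 50614 and 60005 RPKM in replicate 5, against 30397, 29314, 37099 and 25388 RPKM in replicate 1 (0.91 ± 0.19, adjusted p = 0.048). The proline utilisation gene prnC averaged 624.2 ± 176.4 RPKM in replicate 5 and 1354.9 ± 30.5 RPKM in replicate 1 (-1.16 ± 0.24, adjusted p = 0.046; call lost in 5 of those 11 alternatives). Neither overlapped between the groups. In ∆admB the glnA difference was 0.45, the smallest of the 4.

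Ergosterol synthesis, which makes the main sterol of fungal membranes, held genes of both directions. Of 18 tested genes, 3 rose (16.7%, against 4.1% of all genes tested) and 2 fell (11.1%, against 8.96%). The median was 0.41. The squalene epoxidase gene erg1 had 485.5, 242.7, 193.1 and 321.8 RPKM in replicate 5, against 129.1, 64.7, 97.3 and 139.1 RPKM in replicate 1 (difference ± SE, 1.495 ± 0.252; adjusted p = 0.035). The sterol methyltransferase gene erg6 averaged 261.2 ± 42.9 RPKM in replicate 5 and 110.9 ± 18.4 RPKM in replicate 1 (1.23 ± 0.18, adjusted p = 0.031). The sterol isomerase gene erg2 averaged 161.2 ± 30.2 RPKM in replicate 5 and 91.8 ± 9.37 RPKM in replicate 1 (0.79 ± 0.17, adjusted p = 0.049).

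The 2 genes that fell act on isoprenoid units. The isopentenyl diphosphate isomerase gene idi1 had 776.8, 663.6, 1375 and 521.2 RPKM in replicate 5, against 3557, 2673, 3536 and 2586 RPKM in replicate 1 (-1.97 ± 0.24, adjusted p = 0.027). The mevalonate diphosphate decarboxylase gene mvd1 averaged 44.0 ± 21.0 RPKM in replicate 5 and 117.4 ± 13.0 RPKM in replicate 1 (-1.499 ± 0.263, adjusted p = 0.037). None of the 5 called sterol genes overlapped between the groups, which the call itself favours. The genes erg13 and hmg1, named after their values were seen, act at the start of the mevalonate pathway. They had differences of 1.38 and 0.91 and did not pass (adjusted p = 0.114 and 0.083).

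Of 29 tested genes of ribosome biogenesis, 1 rose (3.45%, against 4.1% of all genes tested) and 0 fell (8.96% of all genes). A positive difference was found in 24, and 15 were higher in all 4 strains, where 20.5% of all genes were. The median was 0.51. The exonuclease gene rex4 rose, with 26.6 ± 6.47 RPKM in replicate 5 and 14.1 ± 2.13 RPKM in replicate 1 (0.85 ± 0.18, adjusted p = 0.047; call lost in 3 of the 11 alternatives that keep all pairs). The pseudouridine synthase gene cbf5, named after its values were seen, averaged 1857 ± 269.0 RPKM in replicate 5 and 933.2 ± 172.4 RPKM in replicate 1 and just missed the threshold (adjusted p = 0.0504). Translation genes, 14 tested, had 0 calls and a median of 0.04.

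Genes for transfer RNA modification had 2 of 12 higher (16.7%, against 4.1% of all genes tested) and 0 lower (8.96% of all genes). The dihydrouridine synthase gene dus3 showed the largest rise among called genes with a symbol. It had 173.3, 58.4, 259.6 and 471.3 RPKM in replicate 5, against 7.62, 6.22, 7.54 and 6.28 RPKM in replicate 1 (4.58 ± 0.52, adjusted p = 0.025). Replicate 1 was flat across strains and replicate 5 spread widely above it. The methyltransferase gene trm10 averaged 22.8 ± 1.52 RPKM in replicate 5 and 11.4 ± 1.51 RPKM in replicate 1 (0.95 ± 0.16, adjusted p = 0.035). In messenger RNA processing, the 3' end processing gene ysh1 rose by 1.36 ± 0.29 (adjusted p = 0.049; call lost in 4 of the 11 alternatives). The helicase gene dhh1, which acts in messenger RNA decay in yeast, fell in each strain although the groups overlapped. It had 34.1, 893.2, 36.7 and 22.0 RPKM in replicate 5, against 87.7, 4716, 571.3 and 204.6 RPKM in replicate 1, with ∆admA highest in both (-2.70 ± 0.47, adjusted p = 0.037). In replicates 2 to 4 the median of dhh1 was 33.5 RPKM and its highest value 11539 RPKM.

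**Figure D3:**
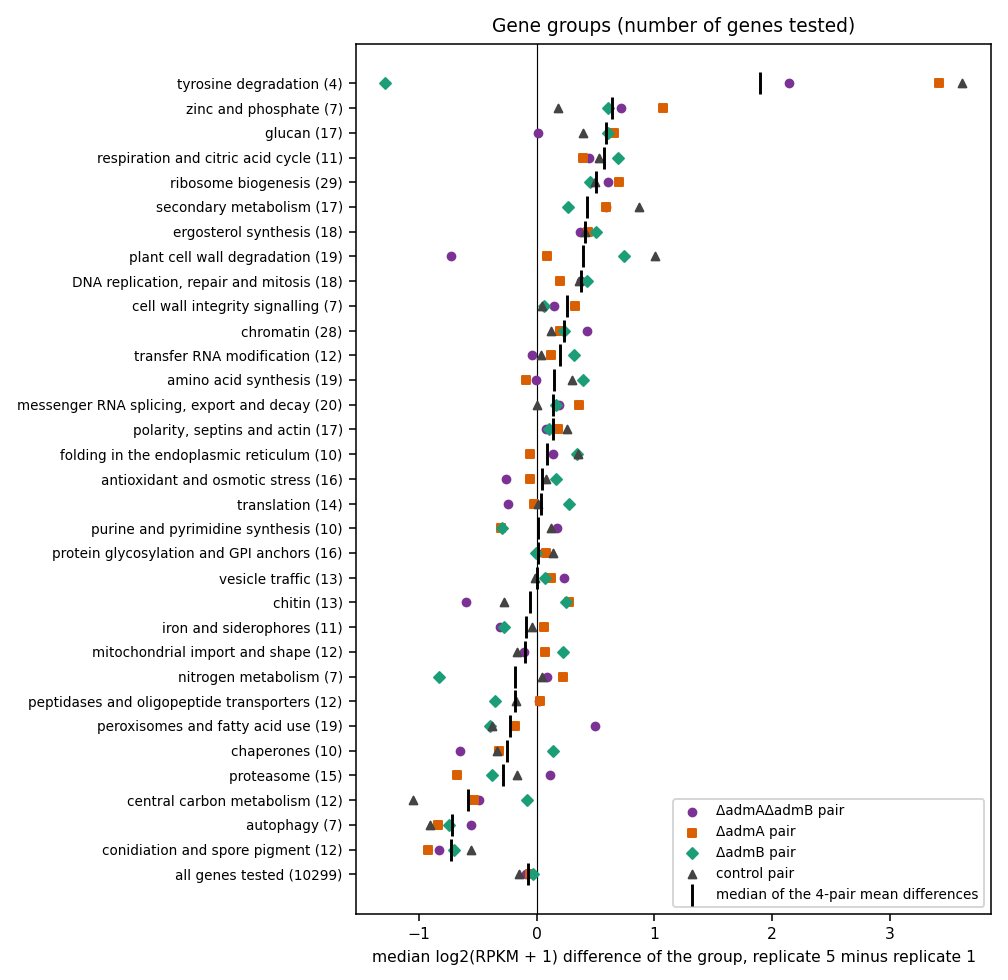
Median log2(RPKM + 1) difference of the tested genes of each of the 32 groups and of all genes, replicate 5 minus replicate 1, with 1 symbol per strain pair and a bar for the median of the differences averaged over the pairs; the number of genes tested is in brackets. The bars of conidiation, autophagy and central carbon metabolism are the lowest 3 as deposited, at -0.73, -0.72 and -0.58.

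Organelle genes with large differences were few. The mitochondrial import receptor gene tom70 had 157.8, 1333, 2171 and 4157 RPKM in replicate 5, against 83.6, 119.2, 97.0 and 137.6 RPKM in replicate 1 (3.44 ± 0.74, adjusted p = 0.0498). The call was lost in 5 of the 11 alternatives that keep all pairs. The difference was 0.91 in ∆admA∆admB and at least 3.47 in the others. The peroxisomal import gene pex14 had 3384, 4957, 789.0 and 3622 RPKM in replicate 5, against 179.5, 1025, 171.7 and 519.3 RPKM in replicate 1 (2.87 ± 0.41, adjusted p = 0.031). The groups overlapped by ∆admB replicate 5 and ∆admA replicate 1, although each strain was higher in replicate 5. The peroxisomal ATPase gene pex6 fell, by a mean of -1.19 ± 0.25 (adjusted p = 0.048), a call lost in 6 of the 11 alternatives that keep all pairs. Of 19 tested peroxisome genes these were the 2 called, 5.26% in each direction, against 4.1% higher and 8.96% lower over all genes. The median was -0.22.

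Transporter genes were called in both directions. The transporter gene mfsA had 944.1, 906.4, 128.5 and 470.4 RPKM in replicate 5, against 41.1, 17.5, 28.8 and 44.6 RPKM in replicate 1 (3.90 ± 0.62, adjusted p = 0.033). The oligopeptide transporter gene optB (AO090012000315) was nearly silent in replicate 5, with 0.360, 0.500, 1.90 and 0.531 RPKM, against 24.8, 46.6, 33.4 and 29.5 RPKM in replicate 1 (-4.28 ± 0.27, adjusted p = 0.015). It was the largest fall among called genes with a symbol. Among 12 peptidase and oligopeptide transporter genes, optB was the only call (8.33% lower, against 8.96% of all genes tested). The groups did not overlap for either gene.

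The gene aspf2, whose homolog in Aspergillus fumigatus takes part in zinc uptake, had 449.2, 492.7, 294.5 and 786.0 RPKM in replicate 5, against 135.5, 36.4, 90.1 and 68.7 RPKM in replicate 1 (2.66 ± 0.47, adjusted p = 0.038). Its neighbour in the RefSeq order is the zinc transporter gene zrfC, named after its values were seen. That gene had 1056, 638.3, 975.0 and 1101 RPKM in replicate 5, against 579.0, 63.9, 308.7 and 162.4 RPKM in replicate 1 (2.14 ± 0.47, adjusted p = 0.052). Neither overlapped between the groups, though zrfC missed the threshold. The siderophore synthetase gene sidC fell to 7.21 ± 2.09 RPKM in replicate 5, against 15.2 ± 2.70 RPKM in replicate 1 (adjusted p = 0.045). That call was lost in 5 of the 11 alternatives that keep all pairs. Among 11 iron genes tested, sidC was the only call (9.09% lower, against 8.96% of all genes tested).

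Of 19 plant cell wall genes, 1 rose (5.26%) and 2 fell (10.5%), near the shares over all genes. The alpha-galactosidase gene aglA had 3.94, 3.64, 25.4 and 4.06 RPKM in replicate 5, against 76.5, 69.5, 90.5 and 70.7 RPKM in replicate 1 (-3.38 ± 0.45, adjusted p = 0.029). The feruloyl esterase gene faeB-2 averaged 3.72 ± 1.49 RPKM in replicate 5 and 14.2 ± 3.98 RPKM in replicate 1 (-1.71 ± 0.20, adjusted p = 0.026). The gene abfI rose to 26.5 ± 3.77 RPKM in replicate 5, against 9.10 ± 2.15 RPKM in replicate 1 (1.46 ± 0.22, adjusted p = 0.033). All 3 were free of overlap.

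The called genes with a symbol also held some with high levels in replicate 1. The lectin gene fleA, which binds fucose, had 316.2, 2236, 3458 and 1170 RPKM in replicate 5, against 23342, 9267, 21314 and 21674 RPKM in replicate 1 (-3.77 ± 0.76, adjusted p = 0.045). The gene gta1 had 890.7, 193.9, 981.3 and 497.4 RPKM in replicate 5, against 6976, 13745, 7922 and 15493 RPKM in replicate 1 (-4.27 ± 0.64, adjusted p = 0.033). The gene glpV had 4209, 4299, 26526 and 5232 RPKM in replicate 5, against 58293, 41207, 50414 and 49047 RPKM in replicate 1 (-2.80 ± 0.53, adjusted p = 0.042). In none of the 3 did the groups overlap, and for glpV the ∆admB library of replicate 5 was far above the other 3. The superoxide dismutase gene sod1 averaged 9877 ± 4602 RPKM in replicate 5 and 19472 ± 3225 RPKM in replicate 1 (-1.08 ± 0.23, adjusted p = 0.0497; call lost in 5 of the 11 alternatives that keep all pairs).

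The remaining named genes are given by their differences. The corepressor gene cyc8 rose by 1.93 ± 0.34, the chaperone cofactor gene grpE by 1.46 ± 0.29, the DNA helicase gene mph1 by 1.07 ± 0.17 and the Rab GTPase gene srgA by 1.00 ± 0.18 on the log2 scale. GbpA fell by 3.07, pan2n2 by 2.36, and aspf1 by 2.09 on that scale. The purine synthesis gene ade1 fell to 44.1 ± 10.3 RPKM in replicate 5, against 87.5 ± 7.23 RPKM in replicate 1. The adjusted p-values of these 8 genes were 0.033 to 0.049 and each had the same sign in all 4 strains. In secondary metabolism, 17 of 25 listed genes passed the filter on low values. The synthetase genes nrps1 and fmpF rose, by 1.73 ± 0.29 and 1.51 ± 0.32 (adjusted p = 0.035 and 0.048).

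Of the 32 groups, 9 had no call in either direction, among them translation, proteasome (15 tested), chromatin (28 tested) and protein folding in the endoplasmic reticulum (10 tested). Over all genes tested, 13.1% were called in either direction. The median difference of the members was positive in each of the 4 strains for 11 groups and negative in each for 3, which were conidiation, autophagy and central carbon metabolism. Tyrosine degradation had no call although its median was 1.90, the highest of any group. Its 4 genes were higher in 3 strains, with strain medians of 2.14 in ∆admA∆admB, 3.42 in ∆admA and 3.61 in the control, and lower in ∆admB, at -1.29. Of these, the homogentisate dioxygenase gene hmgA, named after its values were seen, had 489.7, 2319, 66.1 and 3034 RPKM in replicate 5, against 106.0, 226.9, 170.8 and 264.2 RPKM in replicate 1 (adjusted p = 0.208).

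Among called genes, the largest differences were those of genes without a symbol. The gene AO090011000269 had 459.7, 46.4, 90.1 and 98.3 RPKM in replicate 5 of ∆admA∆admB, ∆admA, ∆admB and the control and was listed at 0 in all 4 libraries of replicate 1. The gene AO090012000098 had 1097, 919.2, 39.0 and 553.0 RPKM in replicate 5, against 5.24, 15.5, 2.57 and 3.53 RPKM in replicate 1 (5.92 ± 0.72, adjusted p = 0.027). These were the 2 largest rises among called genes without a symbol.

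The 2 largest falls among called genes without a symbol were AO090701000862 and AO090701000861. The gene AO090701000862 was listed at 0 in ∆admA∆admB and the control and had 0.797 and 5.80 RPKM in ∆admA and ∆admB in replicate 5, against 1289, 4200, 2557 and 2931 RPKM in replicate 1 of ∆admA∆admB, ∆admA, ∆admB and the control (-10.40 ± 0.55, adjusted p = 0.014). The gene AO090701000861 had 0.487, 2.49, 18.7 and 1.53 RPKM in replicate 5, against 2419, 7699, 3896 and 5632 RPKM in replicate 1 (-10.13 ± 0.69, adjusted p = 0.017). For both genes ∆admB was the highest of the replicate 5 libraries, and all replicate 5 values lay far below all replicate 1 values. Over the whole table, 14 genes were listed at 0 in all 4 libraries of replicate 5 and at 1 RPKM or more in all 4 of replicate 1, and 1 gene showed the opposite.

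These 2 genes lie next to each other in the longest stretch of neighbouring genes that changed the same way. Runs of at least 4 consecutive tested genes called in 1 direction numbered 15, of which 2 were higher and 13 lower, with 78 genes in all. The longest run held 11 genes, all lower, with a median difference of -5.86. The median level of its genes was 0 RPKM in ∆admA∆admB, 0.797 in ∆admA, 1.01 in ∆admB and 0.575 in the control in replicate 5, against 67.4, 154.5, 101.5 and 111.5 RPKM in replicate 1. In replicates 2 to 4 the run median took both kinds of level, with 160.0 and 70.7 RPKM in control replicates 3 and 4, 158.3 RPKM in ∆admA∆admB replicate 3 and between 0 and 6.33 RPKM in the other 9 libraries. The next runs held 7 and 6 genes, both lower, with median differences of -2.60 and -3.72. No gene of these 3 runs has a symbol, so no function is given.

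**Figure D4:**
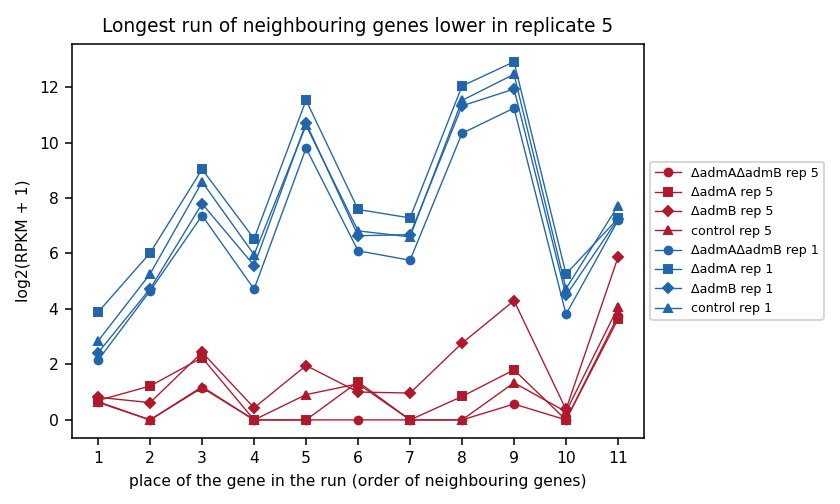
Level, as log2(RPKM + 1), of the 11 genes of the longest run in the 8 libraries, with the genes in RefSeq order on the x axis and 1 line per library. At each of the 11 genes the replicate 5 lines (red) lie below the replicate 1 lines (blue), and genes 8 and 9 are AO090701000862 and AO090701000861.

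The libraries of replicates 2 to 4, which the comparison did not use, were placed on the axis that the 1345 called genes define, where the mean of replicate 1 is 0 and the mean of replicate 5 is 1. The places of replicates 5 and 1 themselves follow from the choice of genes. In the control, replicates 2 to 4 lay at 0.32, 0.03 and 0.17, near replicate 1. In ∆admA they lay at 0.41, 0.54 and 0.76, in ∆admB at 0.60, 0.64 and 1.06, and in ∆admA∆admB at 0.65, 0.04 and 0.84. The ∆admB replicate 4 library lay beyond ∆admB replicate 5, at 0.78. By the step sizes of low values, the libraries that define the axis lie in 1 set. That set also holds ∆admA replicate 4, ∆admB replicates 3 and 4 and ∆admA∆admB replicate 4, at 0.76, 0.64, 1.06 and 0.84. The rest of replicates 2 to 4, including those of the control, lie in another set, at 0.03 to 0.65. In that set the control lay at 0.03 to 0.32 and the deletion strains at 0.04 and at 0.41 to 0.65. The parts of strain and set in these places were not tested. For 1288 of the 1345 called genes, the median of the 12 other libraries lay between the means of replicate 1 and replicate 5. These genes were chosen for a wide gap between those means, which by itself favours a median in between. The same count was not made over all genes tested, so no conclusion is drawn from it.

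**Figure D5:**
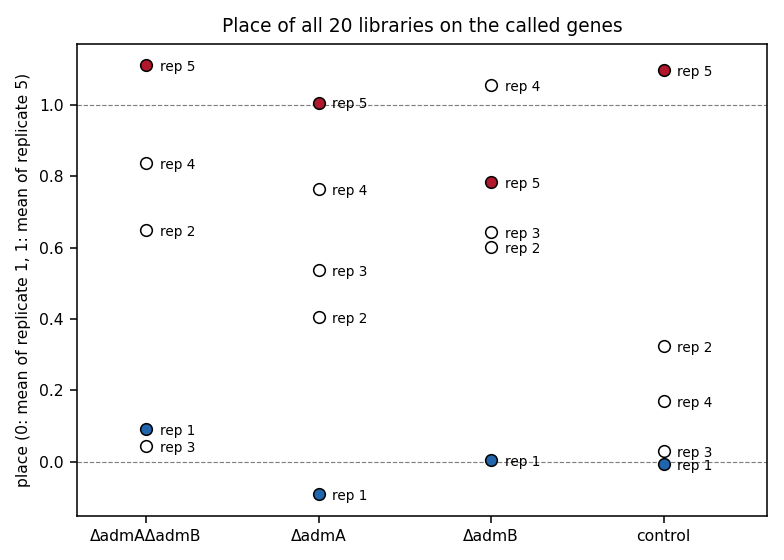
Place of each of the 20 libraries on the axis of the 1345 called genes (0, mean of replicate 1; 1, mean of replicate 5), by strain. Filled points are the 8 libraries that define the axis, and the 12 open points run from 0.03 in control replicate 3 to 1.06 in ∆admB replicate 4. The sets that the step sizes of low values define are not marked.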

How the data were processed

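Messenger RNA of 4 A. oryzae strains was sequenced in 20 libraries, of which the 8 titled replicate 5 or replicate 1 were compared. The values, per the file headers, are RPKM per gene as deposited. Per the submitters' processing notes, the tools were TopHat2 2.0.9, Cufflinks 2.1.1, CASAVA 1.8.2 and FastQC 0.10.1. The sources used here give neither their roles nor the genome build, the annotation or the handling of strand, so reads of overlapping or antisense genes and of near-identical copies cannot be told apart. Each of the 12074 identifiers has a locus tag in RefSeq's ASM18445v3 table. That table supplied symbols, for 714 of them, and gene order only.

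Genes reaching 1 RPKM in 4 or more of the 8 libraries were analysed as log2(RPKM + 1), a scale that understates the change of low genes, with limma 3.58.1 in R 4.3.3 (linear model with strain and replicate, empirical Bayes with a variance trend, two-sided, Benjamini-Hochberg over 10299 genes, threshold 0.05). The pairs are libraries of the same strain. After centring on the replicate means, the 2 libraries of a strain correlated at 0.04 in ∆admA∆admB, 0.12 in ∆admA, 0.09 in ∆admB and 0.01 in the control across genes. The fit was also run on simulated data with independent noise per gene, which these libraries need not have, so no conclusion is drawn from it. Library measures were compared with exact paired permutation tests (sign flips of the pair differences, in Python 3.11.15 with numpy 2.4.6). With 3 residual degrees of freedom, precision is limited by the number of pairs.

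The comparison, the 32 gene groups and the markers were chosen with earlier results of these data known, and no test of a group was made. Named genes are the 15 largest rises and 15 largest falls among called genes with a symbol, up to 3 rises and 3 falls called in each group, the 2 largest rises and falls without a symbol, and brlA, abaA and wetA. The choice of any other gene in the text followed a look at its values. Alternatives were pseudocounts, filters, scalings, variance models, the unpaired fit, all 20 libraries and leaving out each pair.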

Additional observations from a re-analysis of the deposited data

Results flagged for a closer look

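In 11 of 122 sets of 4 libraries, for the named genes and some library measures, 1 library stood far from the other 3. The gap's share of the set's range there exceeds Dixon's critical value, where chance flags about 1 in 20 sets. All 11 flagged sets were of named genes. In replicate 5, 4 of these were ∆admB libraries that lay apart from the other strains. The glpV level was 26526 RPKM in ∆admB, with the other 3 at 4209 to 5232 RPKM. The aglA level was 25.4 RPKM there, with the others at 3.64 to 4.06 RPKM. The optB level was 1.90 RPKM there, with the others at 0.360 to 0.531 RPKM, and chs3 was at 58.7 RPKM, with the others at 70.2 to 70.4 RPKM. For glpV, aglA and optB, the ∆admB library was the replicate 5 library nearest to replicate 1.

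In the control library of replicate 5, abfI was at 32.1 RPKM, with the other 3 at 24.6 RPKM, and erg2 was at 206 RPKM, with the others at 143 to 149 RPKM. In ∆admA replicate 5, dhh1 was at 893 RPKM, with the others at 22.0 to 36.7 RPKM. In ∆admA∆admB replicate 5, fmpF was at 108 RPKM, with the others at 216 to 228 RPKM.

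In replicate 1, the library apart was that of ∆admA for all 3 genes. There pan2n2 was at 30.5 RPKM, with the others at 157 to 199 RPKM, coq4 was at 23.6 RPKM, with the others at 46.6 to 50.8 RPKM, and fleA was at 9267 RPKM, with the others at 21314 to 23342 RPKM.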

How the results depend on the processing

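The number of calls depended on which pairs were in the fit. Leaving out 1 pair at a time gave 0 to 223 genes higher and 0 to 567 lower, and of the 2 non-zero counts 150 and 466 were among the 422 and 923. Without the replicate block that pairs libraries by strain, 839 were higher and 1391 lower, with 390 and 870 shared. With all 20 libraries in the fit, 1125 were higher and 1732 lower (367 and 854 shared). The 8 libraries all lie in 1 of the sets that the step sizes of low values define, so a term for the set could not be fitted within them. With that term in the fit of all 20 libraries, an alternative chosen after seeing the data, 1205 were higher and 1855 lower. Quantile normalization gave 793 higher. The other counts stayed within 1.5 times under the 2 other pseudocounts, both other filters, median scaling, no variance trend and sample quality weights (303 to 585 higher, 677 to 1152 lower). The cause of these shifts was not tested. All 1345 called genes kept their sign wherever tested, 1100 of them with a mean of at least 10 RPKM. The called genes have the same sign in every strain, so leaving out a pair or changing the pseudocount could not change it. The filters, the variance trend, the unpaired fit and the fits of all 20 libraries leave the mean difference of a gene as it was. For these alternatives the kept sign is thus no separate support. The difference of wetA, not called, was -0.031 without the ∆admA∆admB pair and at most 0.19 with any other pair left out, and it was 0.30 after quantile normalization, the highest of its alternatives. Among group medians, secondary metabolism was 0.04 with the filter at a mean of 10 RPKM and 0.16 with no filter, and zinc and phosphate was 0.13 without the ∆admA pair. Depth in reads is unknown, so no limit on genes listed at 0 can be given.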

Other observations

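Some called genes with a symbol lay outside the naming rule and were picked after their values were seen. The gene rpp1 was the most abundant of them, with 40760 ± 7348 RPKM in replicate 5 and 21195 ± 7543 RPKM in replicate 1 (SD, n = 4 each), a log2 difference of 1.00 ± 0.20 (SE; limma adjusted p = 0.044). The gene fhdA averaged 21.1 ± 1.55 RPKM in replicate 5 and 9.19 ± 1.26 RPKM in replicate 1 (adjusted p = 0.029), and mdr1 averaged 46.8 ± 11.8 RPKM in replicate 5 and 20.4 ± 2.95 RPKM in replicate 1 (adjusted p = 0.033). Next to gta1 in the RefSeq order lies anxc4, which fell as gta1 did, to 11.1 ± 1.74 RPKM in replicate 5, against 23.9 ± 1.74 RPKM in replicate 1 (adjusted p = 0.034). The groups did not overlap for any of these 4 genes.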
